A study of Mus musculus with 6 samples.

Results

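Fibroblast growth factors (FGFs) and platelet-derived growth factors (PDGFs) are secreted signals whose receptors are tyrosine kinases. The genes described here are 9 of 10 named receptors and ligands of these families, found by gene symbol among the 12830 genes of the deposited table. They are the receptors Fgfr1, Fgfr2, Fgfr3, Pdgfra and Pdgfrb and the ligands Fgf2, Fgf7, Pdgfa and Pdgfc. Fgf18 was not analysed here. All 9 passed the filter on low counts, with between 50 and 9625 reads per library.

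Ligand binding pairs 2 receptor molecules, which phosphorylate each other and recruit adaptors through which Ras proteins become loaded with GTP. Rras2, the deleted gene, encodes TC21, a Ras-related GTPase that can pass such signals to the ERK and PI3-kinase pathways. In the skeleton, FGF receptors set the pace of growth plate and osteoblast maturation, and mutations in them cause dwarfism and early fusion of skull sutures. Pdgfra and Pdgfrb mark mesenchymal progenitors and perivascular cells, in which PDGF drives division and migration.

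The libraries were made from primary bone marrow mesenchymal stem cells (BMSCs, the adherent stromal cells of marrow) of 8-week-old mice, under osteogenic induction and labelled 2 day. The 3 control libraries, called FF, came from Rras2f/f mice, which carry Rras2 alleles that Cre can delete. The 3 libraries called cKO came from Prx1;Rras2f/f mice, where Prx1 names a limb mesenchyme promoter commonly used to drive Cre. Both groups carried the floxed alleles, and by genotype no library had unmodified ones, though the design text calls the controls wild type. Strain, sex and the number of animals are not in the labels. The 3 libraries of a group may thus share an animal or a culture, and a p-value here covers the variation among these libraries alone, which may be technical.

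Each library held between 31934714 and 37561452 counts over the listed genes. Rras2 had 49.7, 50.1 and 44.7 CPM (reads of a gene relative to the reads of its library, after TMM adjustment) in FF replicates 1 to 3 and 26.7, 28.98 and 26.8 CPM in cKO replicates 1 to 3, so every cKO library lay below every FF library and transcripts remained in all of them. All 10 stromal markers looked for were in the table, and their sum was 4050.2 to 4221 CPM in FF and 5276 to 5646 CPM in cKO. All 10 macrophage markers were also in the table, with a sum of 22341 to 23671 CPM in FF and 24343 to 25066 CPM in cKO, so the cultures held RNA of macrophages, in which the Prx1 promoter is not active, beside that of stroma. In such bulk samples, fewer cells of a type and less RNA per cell cannot be told apart.

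Among the 9 genes, 2 passed the test, Fgf7 upward and Fgfr1 downward (quasi-likelihood test of edgeR, with p adjusted by Benjamini-Hochberg over all genes and a threshold of 0.05), where 4.84% of all genes passed. By direction, 2.1% of all genes were called higher and 2.74% lower. Other thresholds used below were passed by 17.3% of all genes (edgeR unadjusted p below 0.05), 6.61% (DESeq2) and 5.04% (limma-voom). By the authors' deposited table, 4 of the 9 had an adjusted p below 0.05, Fgf7 higher and Fgfr1, Fgfr2 and Fgfr3 lower, where 6.61% of all genes did. DESeq2, run here on the same counts, called the same 4, and 848 genes over all, as the deposited table did. The deposited and DESeq2 values of the 9 were nearly equal, so they are not 2 separate results. For the same 4 genes the CPM of the groups did not overlap, as was so for 22.5% of all genes. Leaving out cKO replicate 1 raised the edgeR calls from 621 to 1166 over all genes and from 2 to 4 among the 9, while leaving out any other library gave 268 to 379 over all genes and 1 among the 9. The median log2 fold change of the 9 was -0.047, beside 0.000579 over all genes, with 3 above and 6 below 0.

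**Figure D1:**
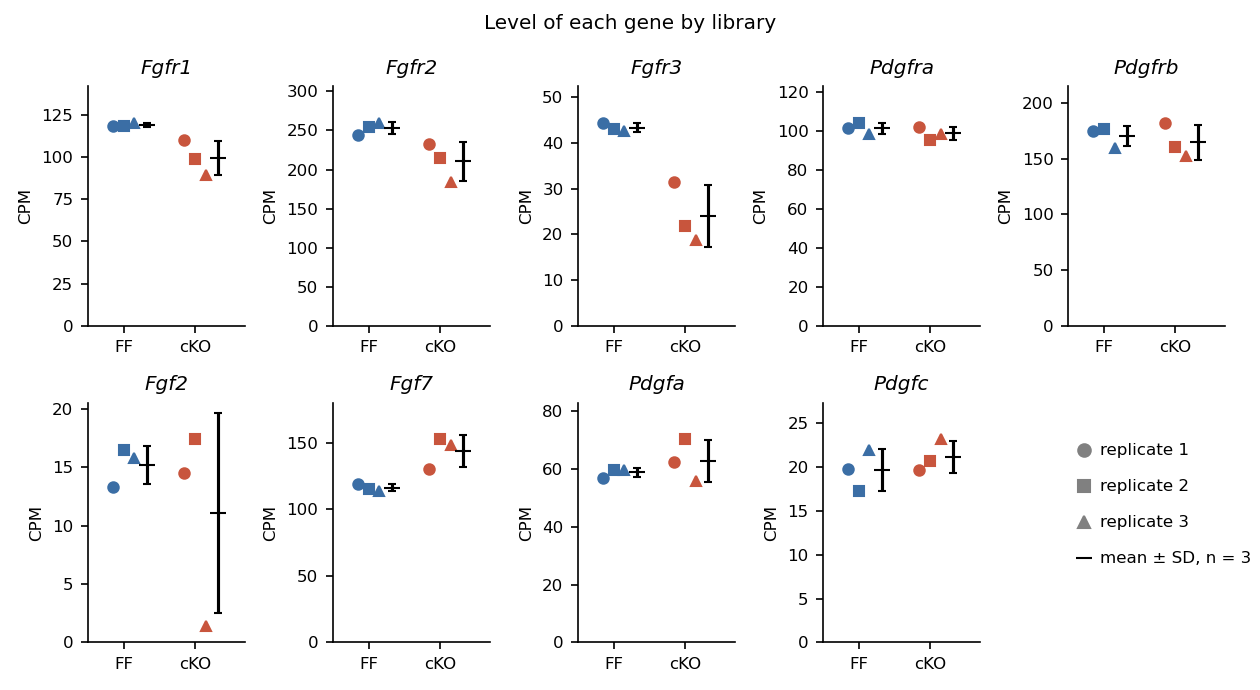
Level of each gene in CPM on a linear axis from 0, with 1 point per library (circle, square and triangle for replicates 1, 2 and 3; blue FF, red cKO) and the mean ± SD of 3 libraries in black. The FF and cKO points are apart for Fgfr1, Fgfr2, Fgfr3 and Fgf7 and overlap for the others, and 1 cKO library has 1.38 CPM of Fgf2.

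The promoters of the FGF genes whose groups did not overlap differed in base composition, and are shown to let a reader compare them. RefSeq promoter entries (GRCm38.p6, the assembly of mm10, 250 bases before to 50 after a start) existed for 7 of the 9 genes. Fgfr1 had none. Those of Fgfr3 (upstream of its 2 starts, chr5:33721474-33721773, plus strand), Fgfr2 (chr7:130266759-130267058, minus strand) and Fgf7 (chr2:126034408-126034707, plus strand) are printed 5′ to 3′ on the gene's strand. The Fgfr2 window lies inside the much longer GENCODE M21 span of that gene, given below. Capitals mark each match of GGGCGG, the GC box bound by SP1, on either strand, and of CANNTG, the E-box bound by TWIST and other bHLH factors.
Fgfr3: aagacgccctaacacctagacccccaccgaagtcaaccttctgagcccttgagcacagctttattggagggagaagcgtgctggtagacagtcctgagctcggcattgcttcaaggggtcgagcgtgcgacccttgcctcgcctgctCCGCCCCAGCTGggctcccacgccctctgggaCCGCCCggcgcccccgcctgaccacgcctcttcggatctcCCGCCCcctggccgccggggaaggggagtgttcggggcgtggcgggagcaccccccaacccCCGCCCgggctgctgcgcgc
Fgfr2: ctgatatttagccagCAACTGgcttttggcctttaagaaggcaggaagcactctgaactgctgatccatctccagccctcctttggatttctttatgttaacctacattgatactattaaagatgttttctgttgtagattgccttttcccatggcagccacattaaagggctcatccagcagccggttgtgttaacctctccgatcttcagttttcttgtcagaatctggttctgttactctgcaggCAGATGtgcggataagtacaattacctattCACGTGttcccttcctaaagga
Fgf7: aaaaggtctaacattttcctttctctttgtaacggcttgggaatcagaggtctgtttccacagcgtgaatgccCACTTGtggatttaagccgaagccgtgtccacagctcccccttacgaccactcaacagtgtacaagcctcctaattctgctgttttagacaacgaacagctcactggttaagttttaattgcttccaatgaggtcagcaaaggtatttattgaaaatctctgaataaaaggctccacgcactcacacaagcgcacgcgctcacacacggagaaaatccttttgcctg
The printed Fgfr3 window held 4 matches of GGGCGG and 1 of CANNTG. The window of the other Fgfr3 start (chr5:33722056-33722355), not printed, held 2 and 0, with a GC content of 73% and 30 CpG. The Fgfr2 window held 0 and 3, and the Fgf7 window 0 and 1. Of 32817 promoter windows of the same length, 35.6% held GGGCGG and 72.3% held the E-box letters. The RUNX core TGTGGT and the AP-1 motif TGANTCA, searched on both strands, had no match in the 3 printed windows, and 16.8% and 7.81% of all windows held them. The GC content was 69.7% in Fgfr3, 45.7% in Fgf7 and 43.7% in Fgfr2, beside a median of 52.7% over all windows. The CpG count was 26 in Fgfr3, 11 in Fgf7 and 4 in Fgfr2, beside a median of 7 over all windows. A match is only a run of letters, and no binding was measured.

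Fgfr3 (ENSMUSG00000054252, chr5:33721674-33737068, plus strand, mm10, GENCODE M21) encodes the receptor that restrains growth plate cartilage, and is also made in osteoblasts. It had 44.5, 42.98 and 42.7 CPM in FF replicates 1 to 3 and 31.6, 21.8 and 18.7 CPM in cKO replicates 1 to 3. The FF libraries lay close together, while the cKO libraries spread widely, with cKO replicate 1 nearest to FF. The FF and cKO means were 43.4 ± 0.945 and 24.02 ± 6.7 CPM (SD, n = 3). The log2 fold change was -0.85 (standard error 0.211, 95% interval -1.41 to -0.30), or 1.81-fold lower in cKO, the furthest from 0 among the 9 genes. Fgfr3 did not pass the edgeR test (adjusted p = 0.133), but had an adjusted p of 0.00615 in the authors' deposited table. Without cKO replicate 1, the cKO library nearest to FF, the log2 fold change was -1.10 and the edgeR adjusted p 2.65e-07. With any other library left out, Fgfr3 did not pass (edgeR adjusted p from 0.116 to 0.331).

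Fgfr1 (ENSMUSG00000031565, chr8:25513654-25575718, plus strand), a receptor of FGF2 in mesenchymal cells, fell. Its level was 118, 119 and 120.4 CPM in FF replicates 1 to 3 and 110.1, 98.8 and 89.6 CPM in cKO replicates 1 to 3. Every cKO library was below every FF library, again with cKO replicate 1 the nearest. The means were 119 ± 1.1 and 99.5 ± 10.3 CPM (SD, n = 3). The log2 fold change was -0.26 (standard error 0.0634, edgeR adjusted p = 0.0342), or 1.197-fold lower. This call ended without FF replicate 1, 2 or 3 (adjusted p = 0.0938, 0.135 and 0.119) and without cKO replicate 2 or 3 (0.157 and 0.119), and in edgeR without robust estimation (0.0917).

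Fgfr2 (ENSMUSG00000030849, chr7:130162451-133123350, minus strand), the receptor whose activating mutations fuse skull sutures early, had 244, 254 and 260.0 CPM in FF and 232, 215 and 184 CPM in cKO. The groups did not overlap, and the means were 253 ± 7.84 and 210.3 ± 24.4 CPM (SD, n = 3). The log2 fold change of -0.27 (standard error 0.0771, 95% interval -0.44 to -0.09) was close in size to that of Fgfr1 but did not pass (edgeR adjusted p = 0.109). The authors' deposited table gave an adjusted p of 0.00369, and edgeR without cKO replicate 1 gave 0.00774. With any other library left out, Fgfr2 did not pass (edgeR adjusted p from 0.107 to 0.284). In all 3 FGF receptors cKO replicate 1 had the highest and cKO replicate 3 the lowest level among the cKO libraries.

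The balance among the FGF receptors was compared per gene length, in FPKM (reads scaled by gene length and library size), as deposited. The 3 receptors summed to 91.3, 98.4 and 98.4 FPKM in FF replicates 1 to 3 and 85.2, 75.4 and 65 FPKM in cKO replicates 1 to 3. Fgfr2 made up 62.1% ± 0.848 of that sum in FF and 63.6% ± 0.287 in cKO (SD, n = 3). The share of Fgfr3 was 10.2% ± 0.615 in FF and 7.01% ± 1.15 in cKO. The Fgfr3 to Fgfr1 ratio was 0.389, 0.357 and 0.353 in FF and 0.295, 0.211 and 0.214 in cKO, with no overlap. The Fgfr2 to Fgfr1 ratio was 2.19, 2.29 and 2.24 in FF and 2.24, 2.12 and 2.15 in cKO, with overlap. These ratios are descriptions and were not tested.

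Some osteoblast markers were lower in cKO as well. Of 8 such markers 2 fell and 0 rose, 7 had negative log2 fold changes and the median was -0.58. DESeq2 called 6 of them and limma-voom 3, and 8 had an unadjusted p below 0.05 in edgeR, among them the 1 with a positive log2 fold change. Those that fell were Runx2 (-0.25), a transcription factor of the lineage, and Col1a1 (-0.59), a chain of type I collagen. Their sum, most of it Col1a1, was 13079.9, 12442 and 12064 CPM in FF replicates 1 to 3. In cKO replicates 1 to 3 it was 9781, 9135 and 8242 CPM, again highest in replicate 1 and lowest in replicate 3. In FF the sum also went down from replicate 1 to 3, as did the CPM of Fgfr3, while those of Fgfr1 and Fgfr2 went up. Of 4 chondrocyte markers measured out of 7, 0 were called by edgeR, 1 had an unadjusted p below 0.05, and DESeq2 called 2 and limma-voom 1. All 4 had negative log2 fold changes, with a median of -0.26, among them Col2a1 (-0.22), the chain of cartilage collagen, and Comp (-1.07), a cartilage matrix protein. Their sum was 323 to 394 CPM in FF and 271 to 308 CPM in cKO, without overlap. No measured marker of either list was at 0, and the part of these markers in the lower FGF receptor levels was not tested.

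Fgf7 (ENSMUSG00000027208, chr2:126034658-126091185, plus strand) encodes keratinocyte growth factor, a ligand that mesenchymal cells secrete toward epithelia. It rose in cKO, with 119, 115 and 114 CPM in FF replicates 1 to 3 and 130.2, 153 and 148 CPM in cKO replicates 1 to 3. All cKO libraries were above all FF libraries, and cKO replicate 1 was again the nearest to FF. The means were 116 ± 2.57 and 144 ± 11.95 CPM (SD, n = 3). The log2 fold change was 0.31 (standard error 0.0563, edgeR adjusted p = 0.00519), or 1.24-fold higher. The call held in all 16 alternatives run, each library left out in turn among them, with adjusted p from 2.87e-05 to 0.0425. The fit without a filter, counted among the 16, repeated the main fit because the filter removed 0 genes. The sum of the stromal markers was also higher in cKO, as given above, and 4 of 10 rose and 0 fell. The log2 fold change was positive for 7 and negative for 3 of them, with a median of 0.10. The 4 that rose were the niche factor gene Cxcl12 (0.47), which makes up most of the sum, Ebf3 (0.39), Grem1 (0.43) and Lepr (0.47), by log2 fold change. The macrophage markers, whose sum was also higher in cKO, had 2 that rose, Tyrobp (0.26) and Mrc1 (0.18), and 1 that fell, Cd14 (-0.18). Of 6 adipocyte markers 1 rose and 0 fell, with sums of 2784 to 2914 CPM in FF and 3054 to 3141 CPM in cKO. None of the markers of these 3 lists was at 0, and their part in the Fgf7 result was not tested. Of 4 B and plasma cell markers measured, 3 rose and 0 fell. Their sums were 181 to 198 CPM in FF and 295 to 357 CPM in cKO. Of 7 osteoclast markers 1 rose and 0 fell. Among 6 neutrophil and 7 endothelial markers measured, 0 were called, with median log2 fold changes of -0.22 and -0.46. The part of these cell types was not tested either.

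Fgf2 (ENSMUSG00000037225, chr3:37348346-37410108, plus strand), a ligand stored in bone matrix that stimulates osteoblast precursors, had 1 library far from the rest. It had 13.3, 16.4 and 15.8 CPM in FF replicates 1 to 3 and 14.5, 17.4 and 1.38 CPM in cKO replicates 1 to 3. The level in cKO replicate 3 stood far below the other 5 libraries, which overlapped between groups. The log2 fold change was -0.46 with a 95% interval of -2.92 to 2.01 (edgeR adjusted p = 0.861), and 0.0699 without that library (adjusted p = 0.874). It was -1.13 with limma-voom (adjusted p = 0.66) and -0.85 in edgeR with the replicate number as a block (adjusted p = 0.808).

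The low value in that library differed between the deposited units. In cKO replicate 3 the count was 50 and the FPKM 0.982, while the other 5 libraries had 461 to 623 counts and 2.07 to 2.65 FPKM. The count per unit of FPKM was therefore 50.9 there and 203 to 241 in the others. Scaled for the library totals, this ratio spread 4.71-fold over the 6 libraries. It spread more than 2-fold in 49 of 12786 genes with no 0 value, with a median spread of 1.02-fold, and at most 1.22-fold for the other 8 genes described. Fgf2 shares chr3:37404910-37410108 with Nudt6, a gene on the opposite strand, where reads of both can be told apart only if counting used strand. The kit kept strand, per the labels' protocols, and the setting used in counting is not stated there. Nudt6 had 60, 62 and 82 counts in FF replicates 1 to 3 and 64, 79 and 113 in cKO replicates 1 to 3. Its part in the low Fgf2 count was not tested.

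**Figure D2:**
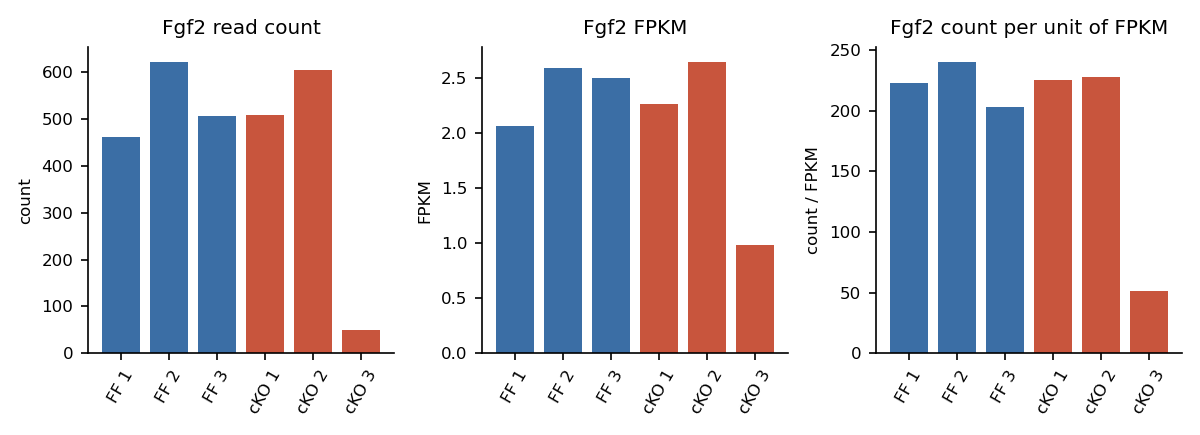
Fgf2 in each of the 6 libraries (blue FF, red cKO) as read count, as FPKM and as the count per unit of FPKM, all as bars from 0. In cKO replicate 3 the count is 50 and the FPKM 0.982, so the ratio falls to 50.9, while the other libraries lie between 203 and 241.

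No difference was detected in the PDGF receptors. Pdgfra (ENSMUSG00000029231, chr5:75152292-75198215, plus strand), which binds PDGF-AA and PDGF-CC, had 101, 104 and 98.2 CPM in FF and 102, 95.6 and 98.6 CPM in cKO, with overlapping groups. Its log2 fold change was -0.04, with a 95% interval of -0.14 to 0.06 (edgeR adjusted p = 0.76). Pdgfrb (ENSMUSG00000024620, chr18:61045150-61085061, plus strand), the receptor of PDGF-BB on perivascular cells, had 175, 176 and 159.6 CPM in FF and 182, 160.3 and 152 CPM in cKO. Its log2 fold change was -0.05, with a 95% interval of -0.19 to 0.10 (edgeR adjusted p = 0.787). Both intervals include 0, and within them changes of up to 1.14-fold lower and 1.07-fold higher remain possible. The Pdgfra to Pdgfrb ratio in FPKM was 0.469, 0.48 and 0.491 in FF and 0.448, 0.479 and 0.525 in cKO.

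Neither PDGF ligand passed the test. Pdgfa (ENSMUSG00000025856, chr5:138976014-138997370, minus strand), which encodes the chain of PDGF-AA, had 56.8, 59.7 and 59.7 CPM in FF and 62.4, 70.2 and 55.6 CPM in cKO, so the cKO libraries lay on both sides of FF. Its log2 fold change was 0.10 (95% interval -0.07 to 0.26, edgeR adjusted p = 0.576). Pdgfc (ENSMUSG00000028019, chr3:81036416-81214040, plus strand), a ligand with a CUB domain that proteases must remove, had 19.8, 17.2 and 21.9 CPM in FF and 19.7, 20.7 and 23.2 CPM in cKO. Its log2 fold change was 0.11 (95% interval -0.10 to 0.32, edgeR adjusted p = 0.639). Of the 4 PDGF receptors and ligands, 0 were called by edgeR, 0 had an unadjusted p below 0.05, and 0 were called by DESeq2 or limma-voom. Platelets also store PDGF, and the 6 platelet markers measured summed to 150 to 169 CPM in FF and 164 to 212 CPM in cKO. Of these 0 were called by edgeR and 1 by DESeq2, and their part in the PDGF ligand levels was not tested. Of 7 mural cell markers, cells in which Pdgfrb is high, 0 were called (edgeR; 1 at an unadjusted p below 0.05, 1 by DESeq2 and 0 by limma-voom), with sums of 1691 to 1912 CPM in FF and 1679.6 to 1973 CPM in cKO.

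**Figure D3:**
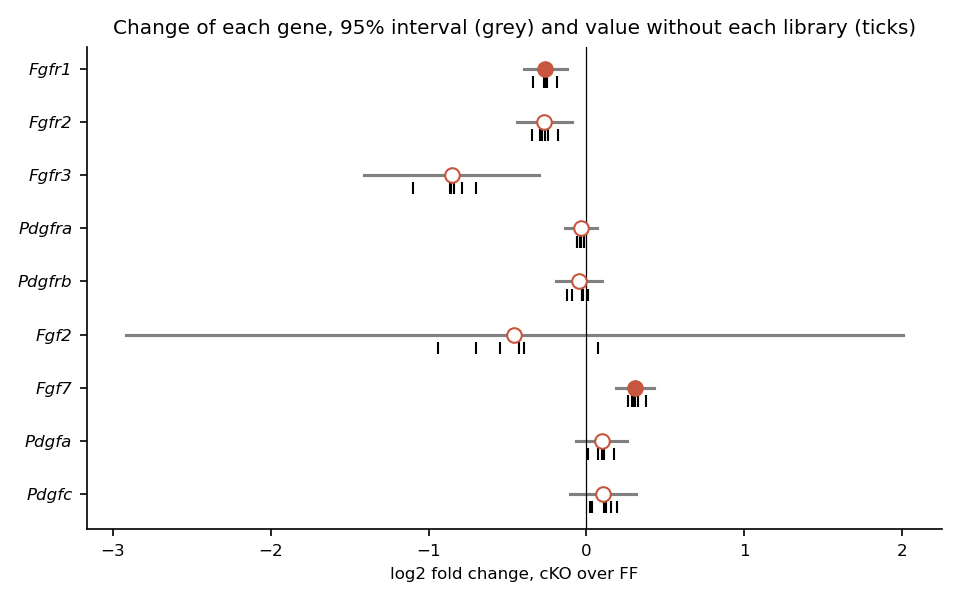
Log2 fold change of cKO over FF for each gene (circle, filled where the edgeR adjusted p is below 0.05), its 95% interval (grey) and the values with 1 library left out (ticks). Only Fgfr1 and Fgf7 are filled. The interval of Fgf2 runs from -2.92 to 2.01, and those of the 4 PDGF genes include 0.

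Levels per gene length ranged over the set. In FF, in FPKM (mean ± SD, n = 3), Fgfr2 was highest at 59.6 ± 3.29, followed by Fgf7 at 40.3 ± 0.31. Pdgfrb at 30.2 ± 1.56 and Pdgfa at 29.5 ± 1.29 overlapped. Fgfr1 followed at 26.6 ± 0.973, then Pdgfra at 14.5 ± 0.609, Fgfr3 at 9.75 ± 0.164, Pdgfc at 5.89 ± 0.659 and Fgf2 at 2.38 ± 0.28. All neighbours in this FF order other than Pdgfrb and Pdgfa were apart in every library. In cKO, Fgf7 at 49.6 ± 3.82 and Fgfr2 at 47.8 ± 6.22 overlapped, as did Fgfr3 at 5.34 ± 1.56 and Pdgfc at 5.92 ± 0.6. Pdgfrb and Pdgfa overlapped in cKO too.

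**Figure D4:**
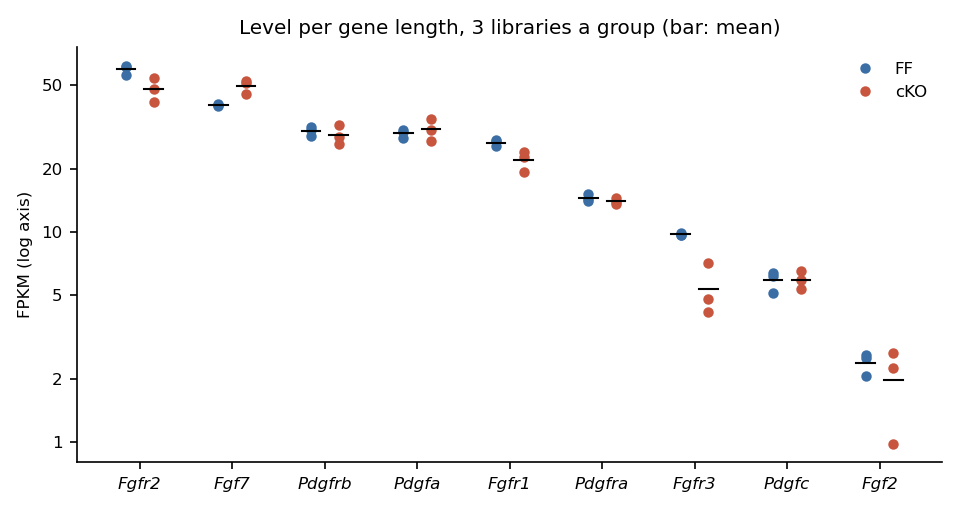
FPKM of each gene on a log axis, 1 point per library (blue FF, red cKO) with the mean of 3 as a bar, ordered by the FF mean. Fgfr2 leads in FF with 59.6 FPKM, its cKO libraries come down to the level of Fgf7, and the cKO libraries of Fgfr3 reach that of Pdgfc.

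All 9 genes carried the pathway terms Ras signaling and MAPK signaling in the deposited annotation, as did 163 and 228 of the 12830 genes. In a list of 20 genes induced downstream of such receptors, 1 of 19 measured rose and 0 fell. The gene was Spry1, a feedback inhibitor of receptor tyrosine kinase signalling, with 22.8, 24.1 and 20.7 CPM in FF and 28.4, 33.8 and 31.9 CPM in cKO (log2 fold change 0.48, edgeR adjusted p = 0.00348). Every cKO library was above every FF library, and the call held in all 16 alternatives. The median of the list was 0.037, and 2 of its genes had an unadjusted p below 0.05 in edgeR. Of 21 receptor adaptors and other proximal signal proteins, 0 were called by edgeR, 3 had an unadjusted p below 0.05, and 0 were called by DESeq2 or limma-voom. Their median log2 fold change was 0.002, and the 2 of the highest mean CPM were Grb2 (0.07), the adaptor that brings the Ras activator SOS to receptors, and Grb10 (-0.05), an adaptor that binds active receptors.

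Other ligands and receptors of the families numbered 6 measured of 24 looked for. Of these 0 were called by edgeR, 2 had an unadjusted p below 0.05, and 0 were called by DESeq2 or limma-voom. The 2 of the highest mean were Fgfrl1, an FGF receptor without a kinase domain, and Pdgfd, with log2 fold changes of 0.13 and 0.08. Among FGF co-receptors and binding proteins 1 of 5 measured fell and 0 rose by edgeR, and DESeq2 called 2. They had 1 positive and 4 negative log2 fold changes, a median of -0.086, and 3 unadjusted p below 0.05 in edgeR. The gene that fell was Cdh2, the N-cadherin gene, whose protein can associate with FGF receptors at cell contacts, with 161, 154 and 155 CPM in FF and 127, 116 and 102 CPM in cKO (log2 fold change -0.45, edgeR adjusted p = 0.00332). No library overlapped between groups, and the call held in all 16 alternatives. Fgfbp3, which encodes an FGF-binding protein and was picked out after its values were seen, had 2.43, 3.83 and 3.71 CPM in FF and 5.102, 5.24 and 4.98 CPM in cKO, also without overlap (log2 fold change 0.62, edgeR adjusted p = 0.0834).

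FGFs bind receptors together with heparan sulfate, a sulfated sugar chain on the cell surface and in matrix. Of 23 proteoglycans and enzymes of heparan sulfate measured, 1 rose and 1 fell, with a median of -0.028. In edgeR 7 had an unadjusted p below 0.05, and 10 log2 fold changes were positive and 13 negative. For 12 the groups did not overlap, as was so for 22.5% of all genes. Their sum was 3480 to 3909 CPM in FF and 3050 to 3299 CPM in cKO. Sdc3, the largest part of it, was lower in every cKO library but not called (log2 fold change -0.53, edgeR adjusted p = 0.178). Hspg2, the perlecan gene, had 573, 577 and 572 CPM in FF and 509, 436 and 414 CPM in cKO (log2 fold change -0.34, edgeR adjusted p = 0.0129). Hpse, the heparanase gene, whose enzyme cuts these chains, had 168, 147 and 155 CPM in FF and 182, 184 and 201 CPM in cKO (log2 fold change 0.27, edgeR adjusted p = 0.0116). The Hspg2 call ended when FF replicate 2, FF replicate 3 or cKO replicate 2 was removed (edgeR adjusted p = 0.0677, 0.0534 and 0.0883). That of Hpse ended when FF replicate 2, FF replicate 3 or cKO replicate 3 was removed (0.0908, 0.0609 and 0.0547).

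Of 12 proteases and binding proteins of PDGF, 3 fell and 0 rose, with a median of -0.17. In edgeR 7 had an unadjusted p below 0.05, and 2 log2 fold changes were positive and 10 negative. Sparc, a matrix protein that binds PDGF, had 3524, 3422 and 3407 CPM in FF and 2775, 2812 and 2588 CPM in cKO (log2 fold change -0.34, edgeR adjusted p = 0.00107). Adamts1, a matrix protease, had 70.3, 75.1 and 70.4 CPM in FF and 59.8, 55.3 and 54.6 CPM in cKO (log2 fold change -0.35, edgeR adjusted p = 0.00246). Pcsk6, a proprotein convertase, had 16.6, 20.5 and 17.98 CPM in FF and 13.5, 10.9 and 8.34 CPM in cKO (log2 fold change -0.75, edgeR adjusted p = 0.0354). Sparc and Adamts1 kept their calls in all 16 alternatives, and Pcsk6 no longer passed once FF replicate 2, FF replicate 3 or cKO replicate 2 was removed (edgeR adjusted p = 0.126, 0.114 and 0.171). Sparc is also a product of osteoblasts, whose markers are given above, and their part in its fall was not tested. Over these lists and a list of other receptor tyrosine kinases, 9 of 106 measured genes were called by edgeR, or 8.49%, beside 4.84% of all genes. The lists were chosen with earlier results of these data known, so no enrichment is read from these shares.

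**Figure D5:**
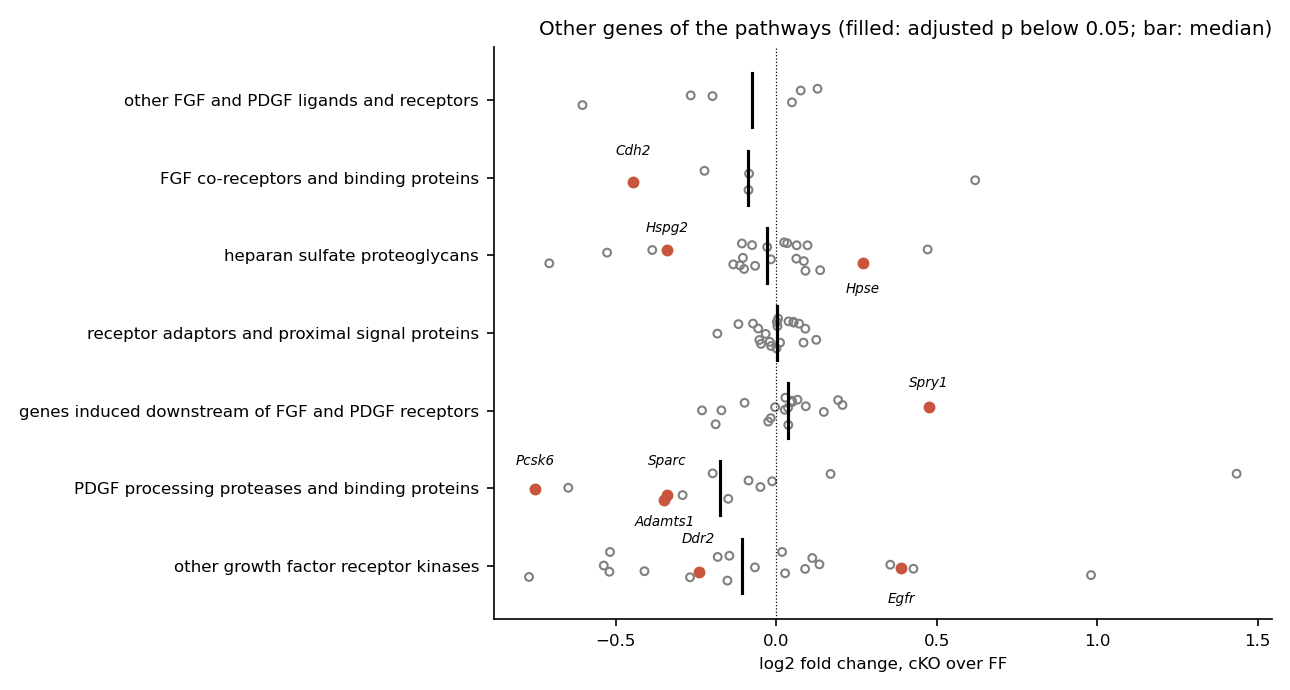
Log2 fold change of cKO over FF for the 106 other pathway genes measured, by list, with called genes filled and named and the list median as a bar. Called genes number 9, with 3 higher and 6 lower, and the medians lie between -0.17 and 0.037.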

How the data were processed

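The 6 RNA-seq libraries fell into 2 groups of 3 by title. Per the file headers, the deposited table gave whole-number counts per gene and library, not normalized, and FPKM values as the authors computed them. Per the file headers it also gave the authors' log2 fold change, p-value and adjusted p-value. The genome build named in the submitters' processing notes is mm10, and the aligner, counter and strand setting are not given in sources used here. The main test on counts was the robust quasi-likelihood F test of edgeR 4.0.16 (R 4.3.3, TMM, filterByExpr, no covariates) over 12830 genes, of which the filter removed 0. The standard error was the coefficient over the square root of F. Alternatives were other scalings, filters, DESeq2 1.42.0, limma-voom (limma 3.58.1), no robust estimation, a replicate block and each library left out. The alternative without a filter could not differ from the main fit and is no separate check. Limma on log2(FPKM + 1) was added after the data were seen. The test was tested on simulated data. Every pair of libraries differed by more than sampling noise. The members and lists were chosen with earlier results of these data known. Named were all members, Rras2, and up to 6 called genes of each pathway list or the 2 of highest mean. The 3 genes most like each of the 2 members of smallest p were named too. Of the marker lists, called genes were named for osteoblast, stroma and macrophage, and uncalled genes for chondrocyte. Markers of the other cell types, called or not, were not named. Nudt6 and Sdc3 were named after their values were seen. A marker of the osteoblast list is not reported here and is left out of its counts. Coordinates are GENCODE M21. Figures were drawn with matplotlib 3.10.9.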

Additional observations from a re-analysis of the deposited data

How the results depend on the processing

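The call of Fgf7 held throughout, and the direction of Fgfr1, Fgfr2, Fgfr3, Fgf7, Pdgfra, Pdgfa and Pdgfc was the same in all 16 alternatives. Over all genes, 621 were called, 399 without robust estimation and between 268 and 1166 with 1 library left out. Of the 9 members 2 were called, 4 with DESeq2, 1 with limma on log2(FPKM + 1), and between 1 and 4 with 1 library left out, the 4 without cKO replicate 1. Without cKO replicate 3 the log2 fold changes of Pdgfrb and Fgf2 turned to 0.00814 and 0.0699, and with 1 library left out they ran from -0.126 to 0.00814 and from -0.939 to 0.0699. The cause of these differences was not tested. Fgfr3 passed without robust estimation (adjusted p = 0.031), and Fgfr1 did not pass with limma on log2(FPKM + 1) (0.106). With the replicate number as a block, 669 genes and 2 members were called; same-numbered libraries had correlations of their deviations from -0.0985 to 0.0913, so the numbers were not taken to pair them. The heparan sulfate list, with 2 calls, had 4 with the block, 4 with DESeq2 and from 0 to 6 with 1 library left out, the other receptor kinases, with 2, had 4 with DESeq2 and from 0 to 6, the PDGF proteases and binding proteins, with 3, had 5 with DESeq2 and up to 7, and the FGF co-receptors, with 1, had 2 with DESeq2. Levels per gene length, recomputed from CPM over an implied gene length, moved by less than 1 SD in all 18 cases. That length was not known apart from the deposited values, so the levels could hardly differ and this check is weak. Fgf2 and Pdgfc, with the fewest reads, had the widest intervals among the ligands (standard errors 0.899 and 0.0976). The receptor Fgfr3 had a wider interval than Pdgfc (standard error 0.211). The part of read number in these widths was not tested.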

Other observations

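Other receptor tyrosine kinases, most of them receptors of growth factors, were measured as 20 genes of 22. Of these 1 rose and 1 fell, with a median log2 fold change of -0.11. In edgeR 9 had an unadjusted p below 0.05, and 9 log2 fold changes were positive and 11 negative. Egfr, the epidermal growth factor receptor, had 22.2, 24.4 and 21.6 CPM in FF replicates 1 to 3 and 27.2, 30.97 and 31.3 CPM in cKO replicates 1 to 3 (log2 fold change 0.39, edgeR adjusted p = 0.0101). Ddr2, a receptor for fibrillar collagen, had 346, 364 and 365 CPM in FF and 322, 294 and 293 CPM in cKO (log2 fold change -0.24, edgeR adjusted p = 0.0087). The groups did not overlap for either gene. The Egfr call ended when FF replicate 3, cKO replicate 2 or cKO replicate 3 was removed (edgeR adjusted p = 0.0598, 0.0629 and 0.0565) and with limma on log2(FPKM + 1) (0.116). The Ddr2 call ended when FF replicate 2, FF replicate 3 or cKO replicate 2 was removed (0.0702, 0.0526 and 0.0566).

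The genes whose level over the 6 libraries was most like that of Fgf7 were Aldh1a2, Rab18 and Cfl2, with Pearson's r of log2 CPM between 0.991 and 0.993. Those most like Fgfr1 were Igf1r, Wnt4 and Irs1, with r between 0.997 and 0.999. They were the highest of 10907 genes whose mean reached 5 CPM. The points share their libraries and the difference between groups, and r is given as a description.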
